A study of Saccharomyces cerevisiae W303 with 9 samples.

Results

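Both yeast strains that lack AIM29 were set against the wild type, to find the genes that move the same way in each and so are not turned back by the ZPR1 construct that one of them carries. The 6 libraries of the strains lacking AIM29 (3 of the construct strain and 3 of the deletion strain) and the 3 wild-type libraries make up all 9 libraries of the study. Of 5970 genes tested, 8 passed the test in each strain in the same direction, and a wider group of 61 genes passed it for the mean of both strains with all 6 libraries above or all 6 below every wild-type library.

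All strains were Saccharomyces cerevisiae of the W303 laboratory background, grown in YPD, a rich glucose medium, to mid-log phase at an optical density of 0.4 to 0.6 at 600 nm. The construct strain is the aim29 deletion mutant with pmTDH3-ZPR1, as the labels write it. The deletion strain is the aim29 deletion mutant without that construct. The wild type carries neither change. The labels give 3 isolates per strain, and do not give the cassette that replaced AIM29, where the construct sits or whether the chromosomal ZPR1 gene was kept. Poly(A) RNA was sequenced, and differences between isolates are the spread behind every test. The main fit pools this spread over all 3 strains, so an SE or p is not drawn from the spread of 1 strain alone.

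Zpr1 is a zinc finger protein that acts as a chaperone of the translation elongation factor eEF1A, which brings aminoacyl-tRNA to the ribosome. Aim29 is a small protein described as a partner of Zpr1 in that work. The genes sought were those that stayed away from the wild type with and without extra ZPR1. Most genes of the wider group were called in the deletion strain alone. Genes and gene lists that moved in only the deletion strain or only the construct strain are also described.

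The libraries held 14380639 to 20140071 counts, and 3 counts correspond to 0.143 to 0.213 CPM (read counts relative to library size, adjusted with the TMM factors of edgeR). The biological coefficient of variation was 14.8% among the construct libraries (10.1% without replicate 3), 3.76% among the deletion libraries and 5.22% among the wild-type libraries. The quasi-likelihood test of edgeR used a spread per gene that all groups share, with a call at a Benjamini-Hochberg adjusted p under 0.05. This test found 11 of 5970 genes in the construct strain against the wild type (0.184%), 7 higher (0.117%) and 4 lower (0.067%). It found 382 genes (6.4%) in the deletion strain against the wild type, 253 higher (4.24%) and 129 lower (2.16%). Between the strains, construct against deletion, 5.38% of all genes were called, 1.66% higher and 3.72% lower. Both comparisons with the wild type use the same wild-type libraries. Without construct replicate 1, 2 or 3 the construct strain had 73, 41 or 63 calls. With each strain compared alone with the wild type, edgeR called 4 genes in the construct strain and 1588 in the deletion strain. The count in each strain thus depends on the shared spread.

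The 8 genes called in each strain were ZPR1, tK(UUU)K, YKR075C, MTH1 and GPD1, which rose (5 genes, 0.0838% of those tested), and AIM29, YJR029W and PHO11, which fell (3 genes, 0.0503%). No gene was called in opposite directions by edgeR (0%). At an unadjusted p under 0.05 in both comparisons, 17 genes had opposite signs, and DESeq2 called 2 genes in opposite directions. As both comparisons share the wild-type libraries, these counts are given without a test. Fewer cells in a given state and less RNA per cell cannot be told apart in any of these bulk libraries.

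**Figure D1:**
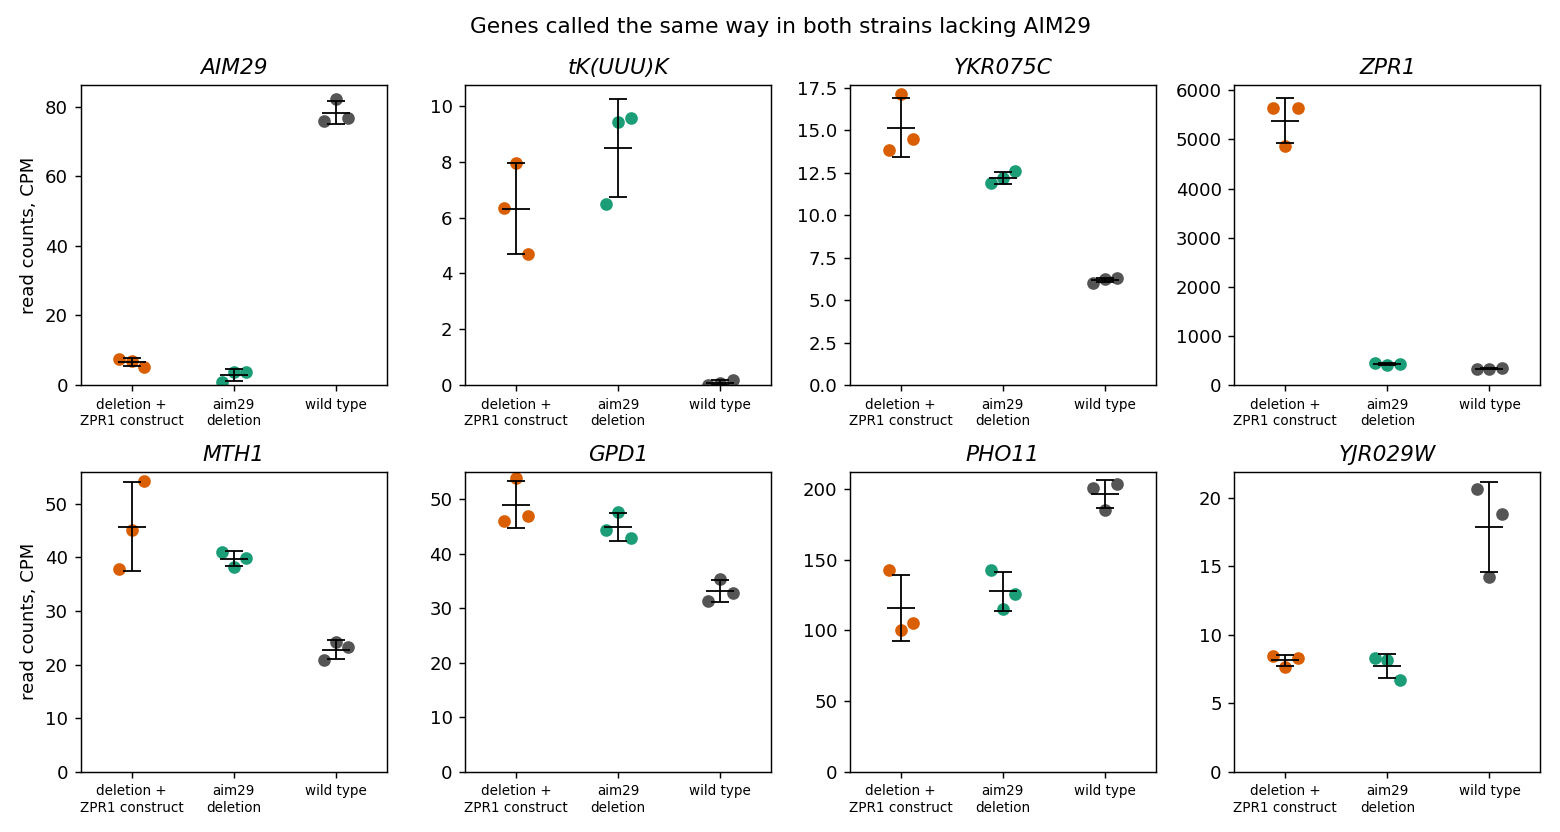
Read counts (CPM) in each library (points) of the 8 genes called the same way in both strains lacking AIM29, with the mean and SD of 3 libraries per group (bars); y axes differ and start at 0. In all 8 panels the 6 libraries of the construct and deletion strains lie on one side of the 3 wild-type libraries.

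AIM29 (YKR074W), on chromosome XI at 579209 to 579676 (+ strand, build R64, 1 exon), had 7.46, 7.05 and 5.17 CPM in the construct libraries and 0.782, 3.87 and 3.63 CPM in the deletion libraries, against 76.0, 82.2 and 76.9 CPM in the wild-type libraries. All 6 libraries lacking the gene were far below the wild type. The level was 11.9-fold lower in the construct strain and 28.2-fold lower in the deletion strain (edgeR adjusted p = 0.000161 and 8.2e-06). Reads assigned to the gene were not at 0 in either strain, with 132, 148 and 96 counts in the construct libraries and 11, 55 and 52 in the deletion libraries. The difference between the strains did not pass the test (construct minus deletion 1.24 ± 0.34 on the log2 scale, SE, adjusted p = 0.065).

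Counts assigned to both called neighbours of AIM29 were higher, so 3 of the 8 genes sit next to each other at the deleted locus. As the labels do not give what replaced AIM29, reads of these genes and reads of a replacing cassette cannot be told apart, and the values are read counts on the features, not shown to be their own transcripts. The lysine tRNA gene tK(UUU)K, at 578965 to 579060 on the same strand, ends 148 bases before AIM29. It has 2 exons, an intron of 23 bases and a spliced length of 73, and it is the only 1 of the 2 lysine tRNA genes of the chromosome with the anticodon TTT. Its gene sequence is shown because hardly any read fell on it in the wild type; the capitals mark the anticodon.

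tK(UUU)K: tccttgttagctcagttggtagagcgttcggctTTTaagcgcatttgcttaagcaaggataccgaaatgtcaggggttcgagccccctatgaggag

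It had 112, 167 and 87 counts in the construct libraries and 91, 134 and 137 counts in the deletion libraries, against 0, 1 and 3 counts in the wild-type libraries. The wild-type counts are at or under the floor of 3 counts, so no fold is given; edgeR's adjusted p was 0.000238 in the construct strain and 2.65e-05 in the deletion strain. The libraries were made from poly(A) RNA, and what transcript these reads come from was not tested. With a mean under 10 CPM it lies outside the rule for named genes and was named after its values were seen.

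YKR075C, an uncharacterised gene on the opposite strand at 579827 to 580750, lies 150 bases beyond the end of AIM29. Its levels were 13.8, 17.1 and 14.5 CPM in the construct libraries and 11.9, 12.2 and 12.6 CPM in the deletion libraries, against 6.01, 6.25 and 6.28 CPM in the wild-type libraries. The groups did not overlap, and each strain was higher than the wild type (2.45-fold in the construct strain and 1.97-fold in the deletion strain, edgeR adjusted p = 0.00037 and 0.000577). The strain values themselves differed by 0.31 ± 0.11 on the log2 scale (SE, adjusted p = 0.119). Whether the counting used strand is not given in the sources used here, so reads of the 2 strands cannot be told apart at this locus.

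No rise past these neighbours passed the test. YKR073C, on the far side of the tRNA gene, had 2.32 ± 0.39 CPM in the construct strain and 2.96 ± 0.60 CPM in the deletion strain, against 1.47 ± 0.55 CPM in the wild type (SD, n = 3 each); all 6 libraries were above, and edgeR's adjusted p for the mean of both strains was 0.133. DRE2 and SIS2 to the left and ECM4 and MSA2 to the right overlapped the wild type over the 6 libraries, with adjusted p of 0.34 to 0.994 for the mean of both strains. MSA2 fell in the deletion strain alone, with 39.1 ± 1.0 CPM in the construct strain and 24.9 ± 1.6 CPM in the deletion strain, against 34.2 ± 2.0 CPM in the wild type (SD, n = 3 each; edgeR adjusted p = 0.356 in the construct strain and 0.00599 in the deletion strain). Around ZPR1 on chromosome VII none of the 3 protein-coding genes on either side was called for the mean of both strains (adjusted p of 0.167 to 0.966).

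**Figure D2:**
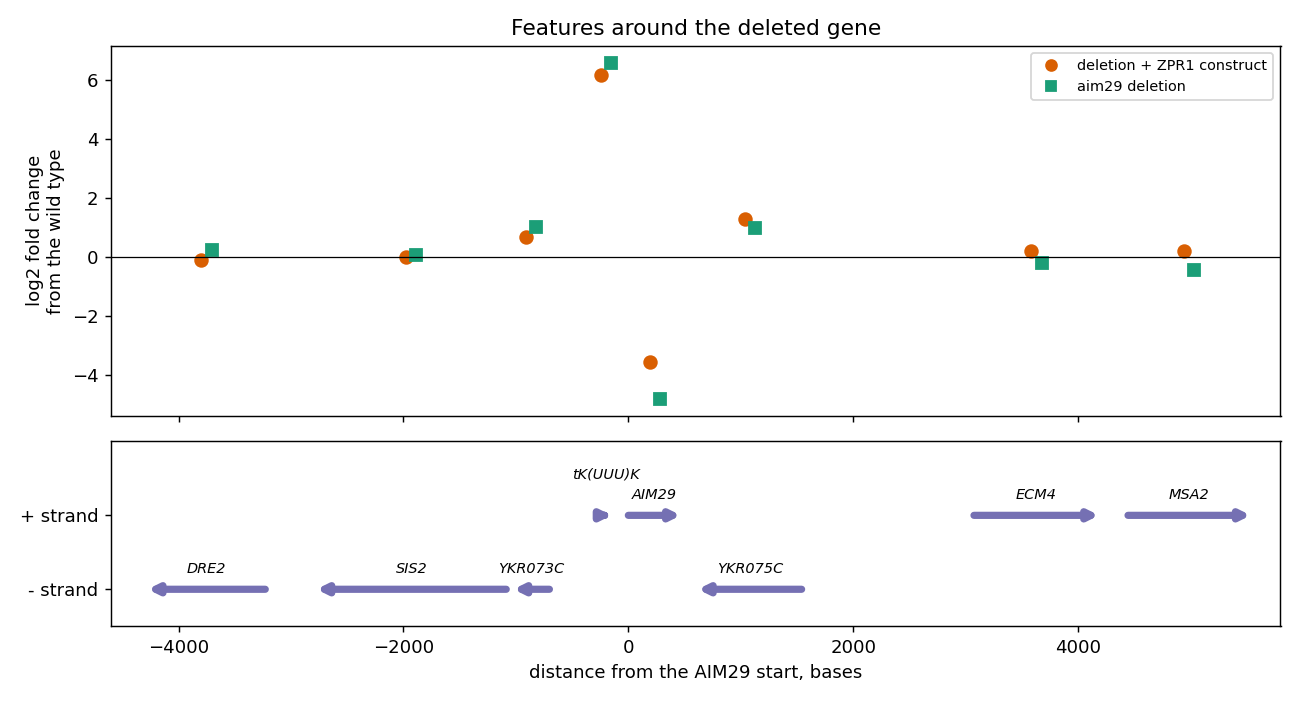
Upper panel, fitted log2 fold change from the wild type of the features around AIM29 in the construct strain (circles) and in the deletion strain (squares) by distance from the AIM29 start in bases; lower panel, their positions and strands. AIM29 was low in both strains and its neighbours tK(UUU)K and YKR075C high; the fitted value of tK(UUU)K depends on the prior count, as its wild-type counts were 0, 1 and 3.

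ZPR1 (YGR211W), at 915241 to 916701 on chromosome VII, had 5645, 4856 and 5640 CPM in the construct libraries and 445, 400 and 421 CPM in the deletion libraries, against 329, 322 and 337 CPM in the wild-type libraries. The construct strain was 16.3-fold higher than the wild type (adjusted p = 2.55e-10) and 12.8-fold higher than the deletion strain (adjusted p = 5.68e-10). The construct itself carries this gene. In the deletion strain, which has no construct, ZPR1 rose 1.28-fold (log2 0.36 ± 0.07, SE, adjusted p = 0.0121), with each of its libraries above each wild-type library. This call was lost when any 1 wild-type library, or deletion replicate 1 or 3, was left out. The other tested genes of the elongation factor list, 15 of 17, had no call in the mean of both strains, and the list's median was -0.01 on the log2 scale against 0.01 over all genes tested.

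Beyond the locus and ZPR1, the 2 genes that rose in both strains act in sugar metabolism. MTH1 (YDR277C, chromosome IV, 1014401 to 1015702) encodes a regulator that keeps hexose transporter genes repressed when glucose is low and is degraded when glucose is sensed. It had 37.8, 45.04 and 54.3 CPM in the construct libraries and 41.0, 38.3 and 39.9 CPM in the deletion libraries, against 20.8, 24.2 and 23.3 CPM in the wild-type libraries. The lowest of the 6 libraries was well above the highest wild-type library. MTH1 was 2.01-fold higher in the construct strain (log2 1.01 ± 0.12, SE, adjusted p = 0.00773) and 1.75-fold higher in the deletion strain (0.80 ± 0.12, adjusted p = 0.00307). Construct minus deletion was 0.20 ± 0.12 (adjusted p = 0.34).

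GPD1 (YDL022W, chromosome IV, 411825 to 413000) encodes the NAD-dependent glycerol-3-phosphate dehydrogenase that starts glycerol synthesis and is induced by high osmolarity. Its levels were 46.1, 53.9 and 46.9 CPM in the construct libraries and 44.3, 47.8 and 42.8 CPM in the deletion libraries, against 31.3, 35.3 and 32.8 CPM in the wild-type libraries. GPD1 rose 1.48-fold in the construct strain (log2 0.57 ± 0.09, SE, edgeR adjusted p = 0.0296) and 1.36-fold in the deletion strain (0.44 ± 0.09, adjusted p = 0.0125). All 6 libraries lay above the wild type, and the 2 strains overlapped each other. GUT2, the mitochondrial glycerol-3-phosphate dehydrogenase, chosen after its values were seen, had 41.4, 56.3 and 48.8 CPM in the construct libraries and 47.3, 48.0 and 43.2 CPM in the deletion libraries, against 34.4, 38.1 and 34.2 CPM in the wild-type libraries, with an adjusted p of 0.0522 for the mean of both strains.

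Among 18 glucose transporters and their regulators, 3 rose for the mean of both strains: MTH1, the glucose sensor gene SNF3 and the low-affinity transporter gene HXT3. No member fell, and the list's median was 0.26 in the construct strain and 0.05 in the deletion strain (log2), against 0.01 and 0.00 over all genes tested; with no composition factors the deletion median was -0.004. In the same mean of both strains, 1.51% of all genes were called higher. SNF3 had 27.8, 25.5 and 33.4 CPM in the construct libraries and 27.1, 28.4 and 28.2 CPM in the deletion libraries, against 20.3, 22.0 and 21.4 CPM in the wild-type libraries (mean of both strains 0.42 ± 0.09, SE, adjusted p = 0.0412). HXT3 overlapped the wild type in construct replicate 2: it had 1680, 1157 and 1832 CPM in the construct libraries and 1746, 1504 and 1604 CPM in the deletion libraries, against 898, 1185 and 1013 CPM in the wild-type libraries (0.62 ± 0.14, adjusted p = 0.0456). MIG1, the glucose repressor, lay above the wild type in all 6 libraries without a call (adjusted p = 0.12, chosen after its values were seen).

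Of the genes that fell in both strains, PHO11 (YAR071W, chromosome I, 225460 to 226863) encodes a secreted acid phosphatase made when phosphate is short. It had 143, 100 and 105 CPM in the construct libraries and 143, 115 and 125 CPM in the deletion libraries, against 201, 185 and 204 CPM in the wild-type libraries. The highest value in the strains lacking AIM29 was below the lowest wild-type value. PHO11 was 1.70-fold lower in the construct strain and 1.54-fold lower in the deletion strain (adjusted p = 0.0493 and 0.0149). The call in both strains was lost in 7 of the 9 fits that left out 1 library, all but those without construct replicate 1 or 3, with an adjusted p in the construct strain of 0.0507 to 0.318 in these fits. Only 11.7% of the 50-base windows of PHO11 occur once in the genome, so its reads are shared with its near-identical copy PHO12, which had 406, 249 and 196 CPM in the construct libraries and 353, 309 and 347 CPM in the deletion libraries, against 424, 445 and 484 CPM in the wild-type libraries.

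Of 18 phosphate starvation genes, PHO11 alone was called lower for the mean of both strains (12 lower and 0 higher at an unadjusted p under 0.05), and 17 had a value below 0. The share of all genes at an unadjusted p under 0.05 is not given here. Such counts, for this list and those below, are therefore not read as an excess. All 6 libraries were below the wild type for 7 of the 18 (38.9%, against 4.89% of all genes tested): PHO11, PHO12, PHO81, PHO84, PHM6, VTC3 and VTC4. The list's median was -0.28 in the construct strain and -0.16 in the deletion strain (log2). Against the wild type, 1 member was called lower in the construct strain and 3 in the deletion strain. Construct against deletion, 1 member was called higher and 2 lower, against 1.66% and 3.72% of all genes. PHO84, the high-affinity phosphate transporter gene, had 2699, 2407 and 2992 CPM in the construct libraries and 3016, 2850 and 2977 CPM in the deletion libraries, against 3350, 3186 and 3406 CPM in the wild-type libraries (adjusted p = 0.105 for the mean of both strains). VTC3, a subunit of the polyphosphate polymerase, had 968, 780 and 843 CPM in the construct libraries and 892, 846 and 885 CPM in the deletion libraries, against 1032, 1018 and 1148 CPM in the wild-type libraries (adjusted p = 0.0559). These 2 genes were chosen after their values were seen.

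The Pho4 core CACGTG, which reads the same on both strands, was found in the 300 bases before the gene start in 9 of the 18 list members (50%) and in 3.56% of 5988 such windows. PHO11 holds it 283 to 278 bases before its start. The window of PHO11 (chromosome I, 225160 to 225459, + strand, build R64) is shown as the promoter of the called member, with the core in capitals.

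PHO11 promoter: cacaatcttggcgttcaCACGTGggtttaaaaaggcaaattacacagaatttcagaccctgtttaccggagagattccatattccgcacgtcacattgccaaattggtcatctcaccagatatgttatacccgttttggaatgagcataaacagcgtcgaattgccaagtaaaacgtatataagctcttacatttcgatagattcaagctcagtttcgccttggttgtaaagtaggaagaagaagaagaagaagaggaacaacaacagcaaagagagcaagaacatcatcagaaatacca

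YJR029W (chromosome X, 478344 to 483612) is a reading frame of a Ty retrotransposon. It had 8.42, 7.67 and 8.29 CPM in the construct libraries and 8.32, 8.16 and 6.71 CPM in the deletion libraries, against 20.6, 14.2 and 18.8 CPM in the wild-type libraries. The level was 2.20-fold lower in the construct strain and 2.31-fold lower in the deletion strain (adjusted p = 0.011 and 0.000819), and all 6 values lay below the wild type. None of its 50-base windows (0%) occurs once in the genome, and which Ty copy its reads come from is unknown.

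Taking each gene in turn, the difference between the strains did not pass the test for 7 of the 8 genes, with an adjusted p of 0.065 for AIM29, 0.34 for tK(UUU)K, 0.119 for YKR075C, 0.34 for MTH1, 0.413 for GPD1, 0.548 for PHO11 and 0.83 for YJR029W; ZPR1 was the exception. A p above the threshold does not show that the strains had equal levels. AIM29, tK(UUU)K and YKR075C were kept in every one of the 21 alternative settings tried. Among these settings is the wider group, which needs a call for the mean of both strains and not in each strain. MTH1 was lost in 3 of the 9 settings that leave out a library, each time a wild-type library, and with the groups compared alone (adjusted p = 0.0741 in the construct strain). YJR029W was lost without wild-type replicate 1 or 3 (adjusted p in the construct strain 0.0764 and 0.109), with a spread per group in limma-voom, with the groups compared alone and at an adjusted p under 0.01. GPD1 was lost in 6 of these 9, whenever a wild-type or a deletion library was left out, with an adjusted p in the construct strain of 0.0628 to 0.227, and also with no composition factors (0.066) and with the groups compared alone (0.171). PHO11 was lost in 7 of the 9, and also with the groups compared alone (0.207 in the construct strain), with median-ratio factors (0.0503) and with at least 100 counts in 3 libraries (0.0514). At an adjusted p under 0.01, GPD1, PHO11 and ZPR1 were lost too. A fold of at least 1.5 in each strain removed GPD1 and ZPR1.

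In the construct strain 3 further genes were called against the wild type that were not called in the deletion strain. SOL1, of the 6-phosphogluconolactonase family, had 30.8, 26.9 and 29.6 CPM in the construct libraries and 23.1, 24.0 and 26.9 CPM in the deletion libraries, against 20.5, 20.1 and 19.5 CPM in the wild-type libraries (adjusted p = 0.0447 in the construct strain and 0.0693 in the deletion strain). CIT2, the peroxisomal citrate synthase gene, had 71.1, 55.6 and 56.3 CPM in the construct libraries and 40.8, 32.4 and 40.7 CPM in the deletion libraries, against 34.65, 35.99 and 30.9 CPM in the wild-type libraries, so it rose in the construct strain (adjusted p = 0.0217) and differed between the strains (0.68 ± 0.12, adjusted p = 0.00793). YMR050C, another Ty frame, fell in the construct strain (log2 -0.62 ± 0.09, SE). These 3 complete the 11 calls of the construct strain.

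The mean of both strains, which weighs each strain equally, differed from the wild type in 127 of 5970 genes (2.13%): 90 higher (1.51%) and 37 lower (0.62%). A call in this mean does not require both strains to move. Of the 90 higher genes, 56 had libraries overlapping the wild type, 64 were lower in the construct than in the deletion strain by the test and 12 had opposite signs in the 2 strains. Of the 37 lower genes, 10 overlapped and 9 were called higher for construct against deletion. With no composition factors the split was 75 higher and 71 lower, so 51.4% of the calls were higher, against 70.9% with TMM factors.

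The wider group therefore took only genes called in this mean with all 6 libraries apart from the wild type, 34 higher and 27 lower. Separation of all 6 libraries from all 3 was seen in 189 genes above (3.17%) and 292 genes below (4.89%) of all 5970. Since separation and call chose the 61 genes, their distance from the wild type is a description. Construct against deletion, 13 of the 34 higher and 3 of the 27 lower genes were called, against 5.38% of all genes. The rule itself, by holding the construct libraries apart from the wild type, limits this difference, so a missing call is not read as an equal distance. In 9 of the 34 and 8 of the 27 the construct strain was at least as far from the wild type as the deletion strain. Most were called in the deletion strain alone (26 of the 34 and 18 of the 27).

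**Figure D3:**
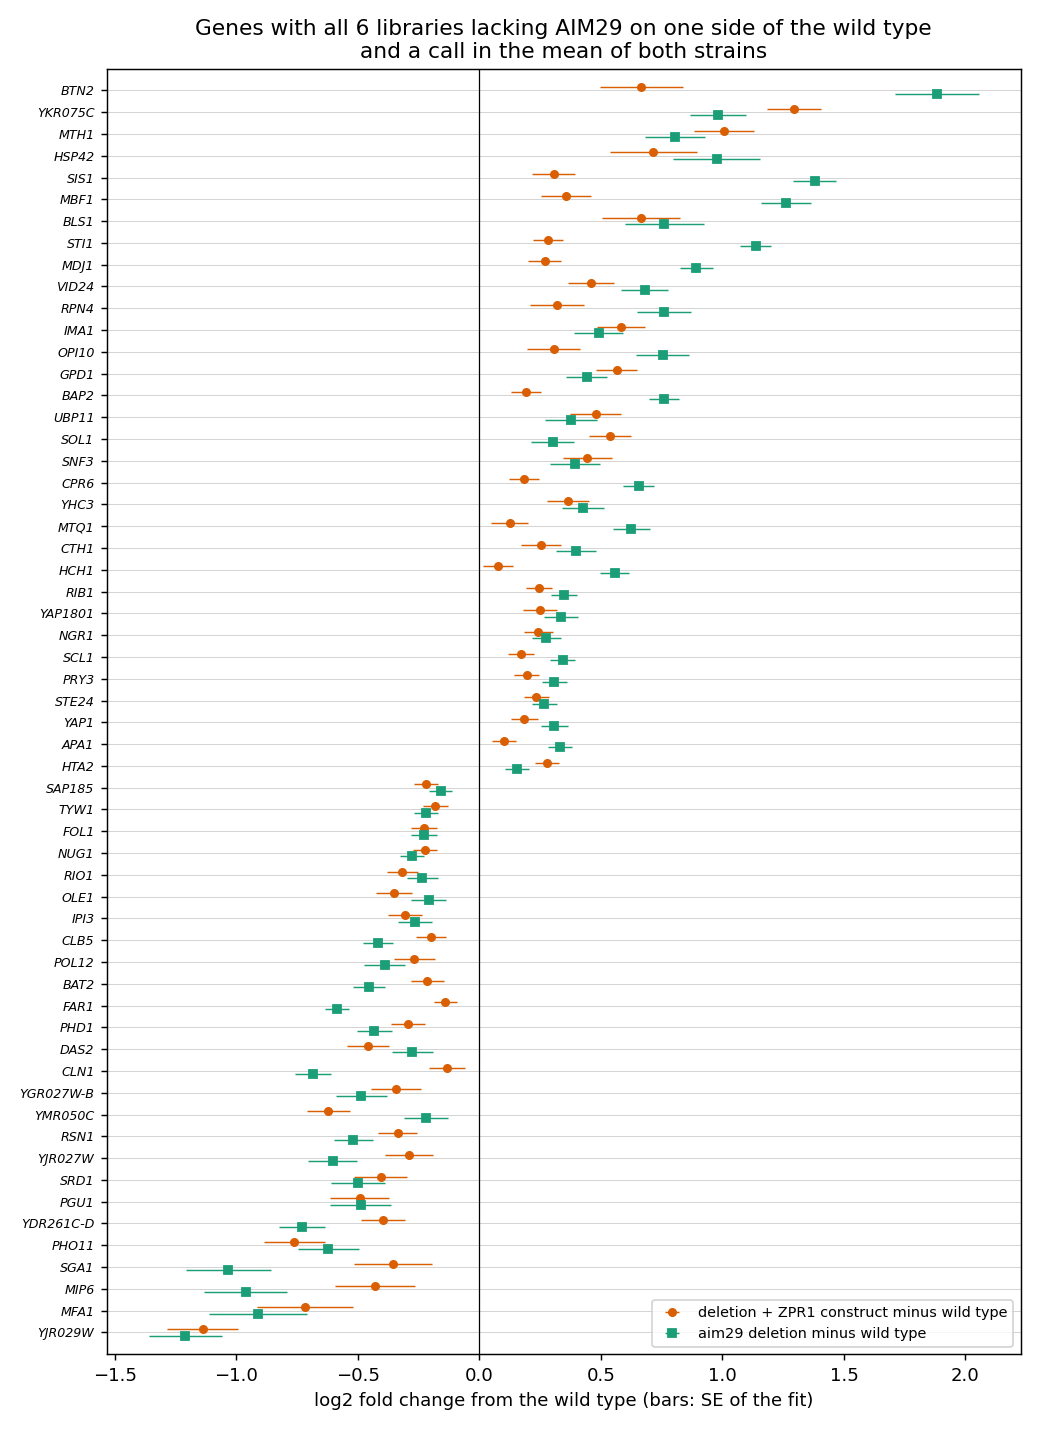
Log2 fold change from the wild type, with the SE of the fit (bars), of 58 of the 61 genes with a call in the mean of both strains and all 6 libraries on one side of the wild type; circles, construct strain; squares, deletion strain; AIM29, ZPR1 and tK(UUU)K are left out for scale. MTH1, GPD1, IMA1 and SNF3 lie close together in both strains, whereas SIS1, STI1 and MBF1 lie much farther out in the deletion strain.

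The higher genes not called between the strains were of mixed function. IMA1, an isomaltase gene, had 13.7, 12.6 and 13.3 CPM in the construct libraries and 12.7, 12.8 and 11.7 CPM in the deletion libraries, against 8.94, 9.22 and 8.25 CPM in the wild-type libraries (construct minus deletion 0.09 ± 0.10, SE). VID24, a subunit of the ubiquitin ligase that removes gluconeogenic enzymes, was higher by 0.46 ± 0.09 in the construct strain and 0.68 ± 0.10 in the deletion strain (log2, SE). BLS1, of the BLOC-1 complex of endosomes, was higher by 0.67 ± 0.16 in the construct strain and 0.76 ± 0.16 in the deletion strain. RIB1, the first enzyme of riboflavin synthesis, was higher by 0.25 ± 0.05 in the construct strain and 0.35 ± 0.05 in the deletion strain. STE24, a protease that processes the a-factor precursor, was higher by 0.23 ± 0.05 in the construct strain and 0.27 ± 0.05 in the deletion strain. None of these 5 was called between the strains; for VID24 construct minus deletion was -0.22 ± 0.09 (edgeR adjusted p = 0.205, unadjusted p = 0.0411). Other higher members not called between the strains were HSP42, YHC3, NGR1, YAP1801, PRY3, SCL1, YAP1 and CTH1.

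Heat shock genes were among the higher members that stayed only in part. Of 28 targets of the heat shock factor Hsf1, which controls chaperone genes, 21 rose for the mean of both strains, with 0 calls in the construct strain and 22 in the deletion strain. In the construct strain 12 had an unadjusted p under 0.05, DESeq2 called 3 and limma-voom 0. Construct against deletion, 21 were called lower. Over all genes, 1.51% were called higher for the mean of both strains, 0.117% in the construct strain and 4.24% in the deletion strain. The share called lower for construct against deletion was 3.72%. These shares also apply to the proteasome list below. The list's median was 0.13 in the construct strain and 0.83 in the deletion strain. All 6 libraries were above the wild type in 8 of the 28 genes (28.6%, against 3.17% of all genes). STI1, a co-chaperone of Hsp70 and Hsp90, had 578, 676 and 608 CPM in the construct libraries and 1154, 1118 and 1095 CPM in the deletion libraries, against 500, 530 and 502 CPM in the wild-type libraries. The construct libraries lay between the other groups and overlapped neither. SIS1, a J-protein partner of Hsp70, was higher by 0.31 ± 0.09 in the construct strain and 1.38 ± 0.09 in the deletion strain (log2, SE), and the strains differed by -1.07 ± 0.09. HSP42, a small heat shock protein gene, was not called between the strains: it had 17.7, 27.2 and 32.3 CPM in the construct libraries and 30.1, 32.9 and 29.6 CPM in the deletion libraries, against 15.1, 16.9 and 15.1 CPM in the wild-type libraries.

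The letters TTCNNGAA, a core of the heat shock element, were found on either strand in the 300 bases before the start of 13 of the 33 higher members with such a window (39.4%), against 13.1% of 5988 windows and 0 of 27 lower members. The inverted core GAANNTTC was found in 8 of the 33 (24.2%), against 11.5% of all windows and 0 of 27 lower members. Most higher members (26 of 34) were called in the deletion strain alone, so these shares do not mark genes that stay in both strains. This is a description of letters, and the windows of the members were read after the members were chosen.

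Of the Rpn4 and proteasome list, 2 of 33 genes rose for the mean of both strains, RPN4 and SCL1, and 0 fell. All 33 values were above 0 (median 0.13, log2), with 7 genes (21.2%, against 3.17% of all genes) above the wild type in all 6 libraries. In the construct strain 0 of the 33 were called (5 higher at an unadjusted p under 0.05, 0 by DESeq2) and the median was 0.06; in the deletion strain 11 were called higher and the median was 0.18. RPN4, the transcription factor of proteasome genes, was higher by 0.32 ± 0.11 in the construct strain and 0.76 ± 0.11 in the deletion strain, and the strains differed (-0.44 ± 0.11, adjusted p = 0.044). SCL1, a proteasome core subunit, was higher by 0.17 ± 0.05 in the construct strain and 0.34 ± 0.05 in the deletion strain (adjusted p = 0.089 between the strains).

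Of 51 genes of the Gcn4 amino acid synthesis list, 14 rose for the mean of both strains, yet 0 were called in the construct strain, 37 in the deletion strain, and 39 were called lower for construct against deletion. Over all genes, the shares were 1.51%, 0.117%, 4.24% and 3.72% in the same order. None of the 51 had all 6 libraries apart from the wild type. The list's median was 0.00 in the construct strain and 0.60 in the deletion strain. At an unadjusted p under 0.05, 0 of the 51 were apart from the wild type in the construct strain, and DESeq2 and limma-voom called 0 there. Of the amino acid permease genes, BAP2 was above the wild type in all 6 libraries, by 0.19 ± 0.06 in the construct strain and 0.76 ± 0.06 in the deletion strain (construct minus deletion -0.57 ± 0.06).

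Some genes of the G1 to S transition were among the lower members, while the list as a whole lay near the wild type in the construct strain. Of 23 such genes, 5 fell for the mean of both strains, 0 in the construct strain and 16 in the deletion strain. In the construct strain 1 was lower and 3 were higher at an unadjusted p under 0.05, and DESeq2 called 1 higher. Construct against deletion, 15 were called higher. Over all genes, 0.62% were called lower for the mean of both strains, 0.067% in the construct strain and 2.16% in the deletion strain. The share called higher for construct against deletion was 1.66%. The list's median was -0.02 in the construct strain and -0.37 in the deletion strain (log2). All 6 libraries were below the wild type in 2 of the 23 genes (8.7%, against 4.89% of all genes), CLN1 and CLB5. CLN1, a G1 cyclin gene, was at -0.13 ± 0.07 in the construct strain (edgeR unadjusted p = 0.103) and -0.69 ± 0.08 in the deletion strain, with all 6 libraries below the wild type. CLB5, an S-phase cyclin gene, was at -0.20 ± 0.06 in the construct strain and -0.42 ± 0.06 in the deletion strain (adjusted p = 0.078 between the strains). Outside the list, FAR1, the inhibitor of G1 cyclin complexes, was at -0.14 ± 0.05 in the construct strain and -0.58 ± 0.05 in the deletion strain, and the strains differed by 0.44 ± 0.05. POL12, a subunit of DNA polymerase alpha primase and also outside the list, was at -0.27 ± 0.08 in the construct strain and -0.39 ± 0.09 in the deletion strain.

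Ribosome assembly factors lay below the wild type in both strains by small amounts. All 75 tested members had a value below 0 for the mean of both strains, within -0.32 and -0.01 on the log2 scale, and the median was -0.17 against 0.01 over all genes tested. It was -0.19 in the construct strain and -0.16 in the deletion strain, with 75 and 73 of the 75 below 0. All 6 libraries were below all 3 wild-type libraries in 42 of the 75 genes (56%, against 4.89% of all genes). No other of the 36 lists had as large a share below the wild type. For single genes the shift was near the limit of the test: edgeR called 1 member lower, NUG1, while 55 had an unadjusted p under 0.05, DESeq2 called 15 and limma-voom 1. Over all genes tested, DESeq2 called 130 lower for the mean of both strains. The construct strain was farther from the wild type than the deletion strain in 49 of the 75 and closer in 26, and 1 member was called between the strains.

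By library, the list's median log2 ratio to the wild-type mean was -0.10, -0.11 and -0.35 in construct replicates 1 to 3 and -0.11, -0.22 and -0.14 in the deletion libraries, against 0.02, -0.04 and 0.03 in the wild-type libraries. Construct replicate 3 stood lowest; without it the construct median was -0.11 and that of the mean of both strains -0.13. With median-ratio factors 46 and with no composition factors 44 of the 75 genes lay below the wild type in all 6 libraries. The shares of all genes below were then 5.06% and 6.65%.

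**Figure D4:**
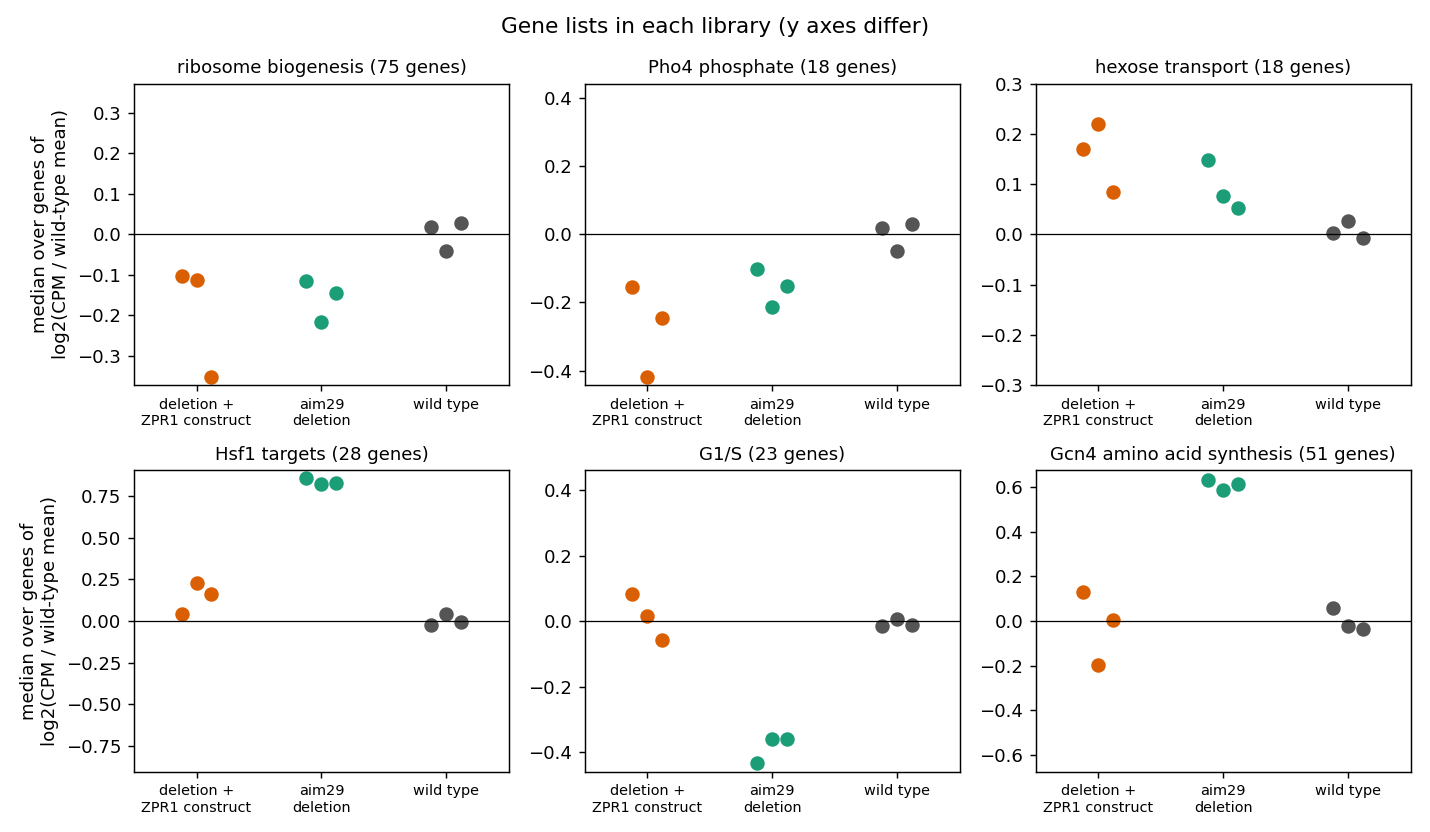
Median over the genes of a list of the log2 ratio of CPM to the wild-type mean, 1 point per library, for 6 gene lists; y axes differ and 0 is the wild-type mean. Ribosome biogenesis and phosphate genes lie below 0 in all 6 libraries lacking AIM29 and hexose transport genes above (with TMM factors; with no composition factors the fitted deletion median of hexose transport was -0.004), whereas Hsf1, Gcn4 and G1/S medians stand apart in the deletion strain and lie nearer the wild type in the construct strain.

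NUG1 (YER006W, chromosome V, 162723 to 164285), a GTPase needed to export the large ribosomal subunit, had 407, 412 and 393 CPM in the construct libraries and 396, 378 and 396 CPM in the deletion libraries, against 483, 454 and 478 CPM in the wild-type libraries. All 6 libraries lay below the wild type, the 2 strains overlapped each other, and NUG1 fell for the mean of both strains by 0.25 ± 0.04 on the log2 scale (SE, edgeR adjusted p = 0.014). RLP24 (YLR009W, chromosome XII, 166537 to 167136), a placeholder protein in the early large subunit, had 300, 290 and 262 CPM in the construct libraries and 290, 268 and 283 CPM in the deletion libraries, against 334, 321 and 338 CPM in the wild-type libraries (-0.23 ± 0.05, adjusted p = 0.0505). RLP24 was chosen after its values were seen. Outside the list, IPI3, of a complex that matures the large subunit, had 212, 213 and 177 CPM in the construct libraries and 205, 203 and 211 CPM in the deletion libraries, against 249, 240 and 254 CPM in the wild-type libraries. RIO1, a kinase of small subunit maturation, had 115, 115 and 102 CPM in the construct libraries and 123, 111 and 117 CPM in the deletion libraries, against 136, 136 and 141 CPM in the wild-type libraries. Both fell for the mean of both strains (adjusted p = 0.041 and 0.0292). The 138 ribosomal protein genes had a median of 0.05 for the mean of both strains, with 1 called higher and 0 lower (1 lower at an unadjusted p under 0.05, and 0 lower by DESeq2).

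The core GATGAG of the PAC element, common before yeast ribosome assembly genes, was found on either strand in the 300 bases before the start of 70 of the 75 list members (93.3%), against 19.1% of 5988 windows. It was present in 40 of the 42 genes with all 6 libraries below the wild type and in 30 of the other 33. The PAC core was added to the motifs searched after the values were seen. The windows of NUG1 (chromosome V, 162423 to 162722, + strand) and RLP24 (chromosome XII, 166237 to 166536, + strand) are shown because they hold overlapping copies, in NUG1 from 103 to 93 and in RLP24 from 206 to 191 bases before the start; capitals mark the core, which reads CTCATC where it lies on the opposite strand.

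NUG1 promoter: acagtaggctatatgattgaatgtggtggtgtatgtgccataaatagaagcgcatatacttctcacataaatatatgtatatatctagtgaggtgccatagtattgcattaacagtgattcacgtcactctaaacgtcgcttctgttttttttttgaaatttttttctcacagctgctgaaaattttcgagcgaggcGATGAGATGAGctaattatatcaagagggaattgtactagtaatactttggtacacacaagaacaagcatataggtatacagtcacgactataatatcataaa
RLP24 promoter: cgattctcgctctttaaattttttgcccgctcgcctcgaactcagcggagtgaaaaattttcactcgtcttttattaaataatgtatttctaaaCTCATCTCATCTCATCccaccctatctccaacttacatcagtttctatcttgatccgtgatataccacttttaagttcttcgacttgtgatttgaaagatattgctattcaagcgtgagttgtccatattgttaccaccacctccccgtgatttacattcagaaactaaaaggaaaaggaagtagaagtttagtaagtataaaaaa

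Of 7 a-specific genes, MFA1 and BAR1 fell for the mean of both strains, and all 7 values were below 0 (median -0.21 in the construct strain, or -0.11 without its replicate 3, and -0.30 in the deletion strain). Over all genes, 0.62% were called lower for this mean. In the construct strain 0 of the 7 were called, and in the deletion strain 2 were called lower, against 0.067% and 2.16% of all genes called lower. MFA1, a gene for the a-factor pheromone, had 39.1, 47.3 and 23.2 CPM in the construct libraries and 31.5, 29.5 and 34.9 CPM in the deletion libraries, against 59.3, 64.7 and 56.6 CPM in the wild-type libraries (adjusted p = 0.0352); all 6 libraries lay below the wild type, and the construct libraries spanned the deletion range. BAR1, the protease that degrades alpha factor, overlapped the wild type in construct replicate 2, with 206, 242 and 150 CPM in the construct libraries and 154, 142 and 146 CPM in the deletion libraries, against 226, 271 and 252 CPM in the wild-type libraries (adjusted p = 0.0455). The summed level of the 7 genes was 1217 to 1576 CPM in the construct strain and 1288 to 1358 CPM in the deletion strain, against 1608 to 1733 CPM in the wild type. The 4 alpha-specific genes summed to 34.9 to 40.9 CPM in the construct strain and 29.6 to 31.9 CPM in the deletion strain, against 33.8 to 37.2 CPM in the wild type, and none was called (1 lower at an unadjusted p under 0.05, 0 by DESeq2). All 3 strains had the markers of a cells high and those of alpha cells low.

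Purine synthesis genes fell short of a call for the mean of both strains, with 0 of 20 called lower by edgeR. At an unadjusted p under 0.05, 10 of 20 were lower, and DESeq2 called 8 lower, against 130 of all genes tested. GCV3, a subunit of the glycine cleavage system, was called higher by edgeR. The list's median was -0.175 in the construct strain, or -0.071 without its replicate 3, and -0.178 in the deletion strain (log2). ADE17, which acts late in purine synthesis, had 495, 448 and 234 CPM in the construct libraries and 290, 285 and 273 CPM in the deletion libraries, against 624, 519 and 528 CPM in the wild-type libraries (-0.74 ± 0.18, adjusted p = 0.0687). Construct replicate 3 lay with the deletion libraries and the other construct libraries nearer the wild type. ADE17 was chosen after its values were seen. ADE2, also a strain marker, was below the wild type in all 6 libraries (-0.36 ± 0.10, adjusted p = 0.0964), and none of the 7 tested strain markers was called by edgeR for the mean of both strains (3 higher and 2 lower at an unadjusted p under 0.05, 1 and 1 by DESeq2).

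A further 7 genes were called for the mean of both strains but in neither strain alone, each with all 6 libraries apart: HTA2 and UBP11 rose, and RIO1, IPI3, DAS2, SAP185 and OLE1 fell. HTA2, a histone H2A gene, had 466, 471 and 495 CPM in the construct libraries and 422, 445 and 447 CPM in the deletion libraries, against 405, 384 and 391 CPM in the wild-type libraries. OLE1, the fatty acid desaturase gene, had 1049, 917 and 936 CPM in the construct libraries and 1090, 1025 and 1090 CPM in the deletion libraries, against 1305, 1118 and 1283 CPM in the wild-type libraries (-0.28 ± 0.06, adjusted p = 0.0492). UBP11, a ubiquitin protease gene, was higher by 0.43 ± 0.09 and SAP185, which binds the Sit4 phosphatase, lower by 0.19 ± 0.04 in this mean.

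The remaining lower members included 4 Ty frames beside YJR029W, namely YDR261C-D, YJR027W, YGR027W-B and YMR050C; all 5 have under 5% unique windows. BAT2, the cytosolic branched-chain aminotransferase, was at -0.21 ± 0.07 in the construct strain and -0.45 ± 0.07 in the deletion strain. PHD1, a transcription factor of filamentous growth, was at -0.29 ± 0.07 in the construct strain and -0.43 ± 0.07 in the deletion strain. FOL1, of folate synthesis, was at -0.23 ± 0.05 in both strains. SRD1, which acts in ribosomal RNA processing, was at -0.41 ± 0.11 in the construct strain and -0.50 ± 0.11 in the deletion strain. None of these 4 was called between the strains.

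Of the 36 lists, 13 had no member called by edgeR for the mean of both strains, with medians between -0.12 and 0.19. They include general stress genes of Msn2 and Msn4 (0 of 38), oxidative phosphorylation (0 of 37), cell wall genes (0 of 25) and ergosterol synthesis (0 of 24). Over the 253 tested members of the 13 lists, 27 were higher and 12 lower at an unadjusted p under 0.05, DESeq2 called 4 higher and 4 lower, and limma-voom 0. Construct replicate 3 was the highest library for the cell wall and the general stress genes. The median log2 ratio to the wild-type mean of the cell wall genes was -0.001, 0.02 and 0.64 in construct replicates 1 to 3 and 0.002 to 0.04 in the deletion libraries, against -0.05 to 0.06 in the wild-type libraries. That of the general stress genes was -0.10, 0.24 and 0.43 in construct replicates 1 to 3 and -0.07 to 0.001 in the deletion libraries, against -0.11 to 0.10 in the wild-type libraries, and 11 of the 38 were higher in the construct strain at an unadjusted p under 0.05. The same library was lowest for the ribosome assembly genes; its part in these values was not tested beyond the medians without it given there.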

How the data were processed

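Poly(A) RNA-seq libraries of 3 isolates of each of 3 strains were analysed, grouped by the sample titles. The authors deposited 1 table of raw, unscaled counts of reads per feature. The submitters' processing notes list build R64 and the tools FastQC 0.11.5, STAR 2.7.0 and DESeq2 1.34.0, with no role. How reads were counted, by strand or not, and what became of reads with several matches is not given in the sources used here; counts of overlapping genes and of near-identical copies are uncertain.

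Of 7127 features, 393 had 0 counts in all libraries and 5970 passed edgeR's filterByExpr. All 9 libraries entered 1 fit of group means (edgeR 4.0.16 in R 4.3.3, TMM factors, quasi-likelihood test, 6 residual degrees of freedom), with contrasts for the mean of both strains, each strain and the difference between strains, adjusted over all genes tested. Log2 fold changes are those of the edgeR fit with its default prior count. Errors beside them are standard errors from the spread that all groups share. The log2 ratios by library and the correlations between libraries use a prior count of 2. Total counts ran from 14380639 to 20140071; statements on levels near 3 counts per library cover counting error only. The fitting code was tested on simulated counts.

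Annotation, positions and sequences come from the reference of build R64, in which 6047 features matched by locus tag, 122 by symbol and 958 not at all. The promoter window is the 300 bases before the annotated gene start. The 36 gene lists, the members and the motifs were chosen with earlier results of these data known. Named genes are AIM29, ZPR1, their neighbours (3 per side), the strain markers, genes called the same way in both strains averaging 10 CPM or more with all 6 libraries apart from the wild type (up to 15 per direction), up to 5 per direction called for the mean of both strains only, and per list up to 4 called members, or 2 where none was called; others are said to be chosen afterwards, except the members of the wider group, which that group's rule fixes. Alternatives were other factors and filters, DESeq2 1.42.0, limma 3.58.1, a replicate block, other thresholds and each library left out.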

Additional observations from a re-analysis of the deposited data

Results flagged for a closer look

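In 16 genes of the wider group the 2 strains lacking AIM29 differed in their distance from the wild type by the test of the difference itself, at an edgeR adjusted p under 0.05; values are construct minus deletion on the log2 scale. ZPR1 differed by 3.67, and the construct carries this gene.

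The construct strain was closer to the wild type than the deletion strain for most of the others. Among chaperone and heat shock genes the difference was -1.22 for BTN2, -1.07 for SIS1, -0.91 for MBF1, -0.86 for STI1, -0.62 for MDJ1, -0.48 for HCH1 and -0.47 for CPR6. It was -0.45 for OPI10, of the inositol and phospholipid list. The difference was -0.57 for the permease gene BAP2, -0.5 for the methyltransferase gene MTQ1, -0.44 for RPN4 and -0.23 for APA1, which acts on diadenosine tetraphosphate. Among lower genes it was 0.55 for CLN1 and 0.44 for FAR1.

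The Ty frame YMR050C differed the other way, by -0.4, and lay farther below the wild type in the construct strain; its reads are shared with other copies.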

How the results depend on the processing

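The count of genes called in both strains moved with the choice of test, while AIM29, tK(UUU)K and YKR075C were called in both under all settings that test each strain. No named gene with a call in the main fit or in the alternative changed direction for the mean of both strains. Sign changes of genes called in neither fit were not counted. Over the fits that left out 1 library, the mean of both strains gave 26 to 284 higher and 3 to 267 lower genes, and both strains the same way 2 to 19 higher and 1 to 21 lower, with 0 to 4 in opposite directions. In these fits the construct strain had 4 to 73 calls and the deletion strain 168 to 1097. The lowest counts came without a wild-type or deletion library and the highest without a construct library: without construct replicate 3, 284 higher and 267 lower for the mean of both strains.

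DESeq2 called 179 higher and 130 lower for the mean of both strains, 18 higher and 14 lower in both strains, 2 in opposite directions, 72 in the construct strain and 597 in the deletion strain; 26 of its 32 shared genes belong to the wider group. A spread per group in limma-voom gave 256 higher and 242 lower for the mean and 1433 in the deletion strain. Without composition factors the mean had 71 lower genes. Groups compared alone gave 3 higher and 1 lower in both strains, 4 calls in the construct strain and 1588 in the deletion strain. An adjusted p under 0.01 left 32 higher and 6 lower for the mean, 3 higher and 1 lower in both strains, 5 in the construct strain and 163 in the deletion strain. A fold of at least 1.5 in each strain left 3 higher genes, and the wider definition held 34 higher and 27 lower. The cause was not tested, beyond fewer libraries or a stricter threshold where the setting says so.

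With the replicate block the mean had 80 higher and 23 lower genes. Same-numbered libraries correlated by -0.107 to 0.0745 in their deviations from the group means, and differently numbered ones by -0.132 to 0.14. The labels do not say whether same-numbered isolates were handled together, and these values do not settle it. With 3 isolates per strain and construct libraries that vary by 14.8%, small shifts such as those of ribosome assembly genes lie near the limit for single genes.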
